A study of Mus musculus with 9 samples.

Results

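The miR-378 family of mouse quadriceps muscle was described by its 5 mature miRNAs in the deposited table, namely mmu-miR-378a-3p, mmu-miR-378a-5p, mmu-miR-378b, mmu-miR-378c and mmu-miR-378d (written below without the species prefix). They were chosen by name among the 1966 mature miRNAs listed, after the lower miR-378a-3p count of Mbnl1KO than of Mbnl2KO mice was known, so that no p-value is given for this difference and nothing is read from a call on it. The question was whether the arms of miR-378a and its paralogs differ between muscles with and without MBNL1 or MBNL2, RNA-binding proteins that regulate alternative splicing.

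Small RNA was sequenced from the quadriceps of 9 mice in 3 groups of 3, with 1 library per mouse, and the labels give each mouse an age of 90 days. WT mice were C57BL/6J with the genotype Mbnl1+/+ Mbnl2+/+. Mbnl1KO mice were C57BL/6J, carried Mbnl1{delta}E3/{delta}E3 and were Mbnl2+/+. Mbnl2KO mice were labelled B6.C-Tg(CMV-cre)1Cgn/J, a strain with a ubiquitously driven Cre that the labels of the other groups do not name, and were Mbnl1+/+. Their labels give a different pair of Mbnl2 alleles for each mouse, {delta}E2/{delta}E2, {delta}E2/{delta}E3 and {delta}E2/{delta}E4, whereas the paper names a single allele combination for the knockout. Whether the mice differed in this way was not settled. The 3 mice were analysed as 1 group, and strain and knockout cannot be told apart in Mbnl2KO. Total counts were between 4761271 and 6277018 per library. The muscle miRNA miR-1a-3p ranked first in all 9 libraries with 61.4% to 73.7% of the counts and miR-133a-3p ranked second, so the tissue carried the miRNAs that define skeletal muscle. These libraries do not measure Mbnl1 or Mbnl2 mRNA, so the knockouts themselves were not checked here.

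A miRNA hairpin can release a mature miRNA from each of its arms, named 5p and 3p. Usually one arm, the guide, is kept by Argonaute proteins and accumulates, while the other, the passenger, is mostly degraded. miR-378a is made from an intron of Ppargc1b, the gene of the transcriptional coactivator PGC-1β, and is known as a miRNA of mitochondrial energy use, lipid metabolism and muscle. Targets are recognised mainly through the seed, bases 2 to 8 of the mature miRNA.

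RefSeq sequences on GRCm38.p6 matched 3 of the 5 members by name, and they are shown because they tell how far the paralogs can be told apart by their reads. Capitals mark the seed.
miR-378b: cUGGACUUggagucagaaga
miR-378c: aCUGGACUuggagucagaagc
miR-378d: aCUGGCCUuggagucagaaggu

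The 3 mature miRNAs have 20, 21 and 22 bases and 3 different seeds. The miR-378b sequence starts 1 base later than miR-378c, which shifts its seed by 1 base. Apart from that shift, miR-378b and miR-378c share an unbroken run of 19 bases and differ by A20C, with positions counted from the 5′ end of the first miRNA named. Between miR-378c and miR-378d, 19 of 21 aligned bases were identical, with the differences A6C, inside the seed, and C21G. How the deposited table assigned a read that fits more than 1 family member is not stated, so the division of counts among such near-identical members is uncertain.

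In the hairpins below, from the same source, capitals mark the mature miRNA. They are shown because the family's mature miRNAs do not all come from the same arm.
Mir378b, chr11:88352773-88352864, plus strand: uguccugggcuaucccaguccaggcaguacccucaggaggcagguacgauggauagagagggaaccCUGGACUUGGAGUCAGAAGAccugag
Mir378c, chr14:46954830-46954928, minus strand: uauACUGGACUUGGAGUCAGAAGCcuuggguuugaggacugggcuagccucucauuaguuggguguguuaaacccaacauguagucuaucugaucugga
Mir378d, chr10:126710282-126710391, minus strand: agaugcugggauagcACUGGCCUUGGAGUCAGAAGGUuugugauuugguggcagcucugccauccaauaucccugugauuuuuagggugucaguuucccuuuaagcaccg

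The mature miR-378b occupies bases 67 to 86 of a hairpin of 92 bases, on its 3p side. The mature miR-378c, at bases 4 to 24 of 99, and miR-378d, at bases 16 to 37 of 110, lie on the 5p side of their hairpins.

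In the GENCODE mouse annotation of GRCm39, Mir378a lies on the minus strand of chromosome 18 in an intron of Ppargc1b, 2764 bases from the annotated start of that gene and on the same strand. There it also overlaps an exon of the long noncoding RNA gene Gm58919 on the same strand and the miRNA gene Gm54396 on the opposite strand. The paralogs lie on other chromosomes. Mir378b is on the plus strand at chr11:88243599-88243690, in an intron of Msi2 but on the strand opposite to it. Mir378c is on the minus strand at chr14:47192287-47192385, in introns of the long noncoding RNA gene Gm63249 on the same strand and of Samd4 on the opposite strand. Mir378d is on the minus strand at chr10:126546151-126546260, in an intron of the long noncoding RNA gene Gm47966 on the same strand.

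Nearly all family counts were listed under the 2 arms of miR-378a. Over the 9 libraries miR-378a-3p had 207622 counts, 94.6% of the family, and miR-378a-5p had 11838 counts, 5.39% of the family. miR-378c had 15 counts, miR-378d had 4 and miR-378b had 1, and these 20 counts together were 0.00911% of the family. In the composition of the muscle libraries, miR-378a-3p took 0.177% to 0.571% of all counts and ranked between 13 and 26. miR-378a-5p took 0.0154% to 0.0348% and ranked between 58 and 73. The 2 arms of miR-378a passed the filter of a mean normalized count above 10, and the other 3 members did not and entered no fit.

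The 3p arm, the more abundant product of the hairpin, was lower in Mbnl1KO than in WT muscle. The raw counts of miR-378a-3p were 25169, 30755 and 27166 in WT replicates 1 to 3, against 17364, 9351 and 17047 in Mbnl1KO and 27825, 31380 and 21565 in Mbnl2KO. Counts were then divided by relative library sizes from TMM scaling, a method that matches libraries on the bulk of their miRNAs, to give normalized counts. These were 27109, 29819 and 33342 in WT, 12873, 9636 and 14231 in Mbnl1KO, and 27604, 30646 and 27231 in Mbnl2KO. All 3 Mbnl1KO libraries lay below all 6 others, Mbnl1KO replicate 2 lay lowest, and the WT and Mbnl2KO libraries overlapped.

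The mean normalized count of miR-378a-3p was 30090 ± 3126 in WT, 12247 ± 2361 in Mbnl1KO and 28494 ± 1874 in Mbnl2KO (SD, n = 3). The coefficient of variation between libraries was 10.4%, 19.3% and 6.58% in these groups, and counting error alone gives between 0.565% and 1.03% per library.

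**Figure D1:**
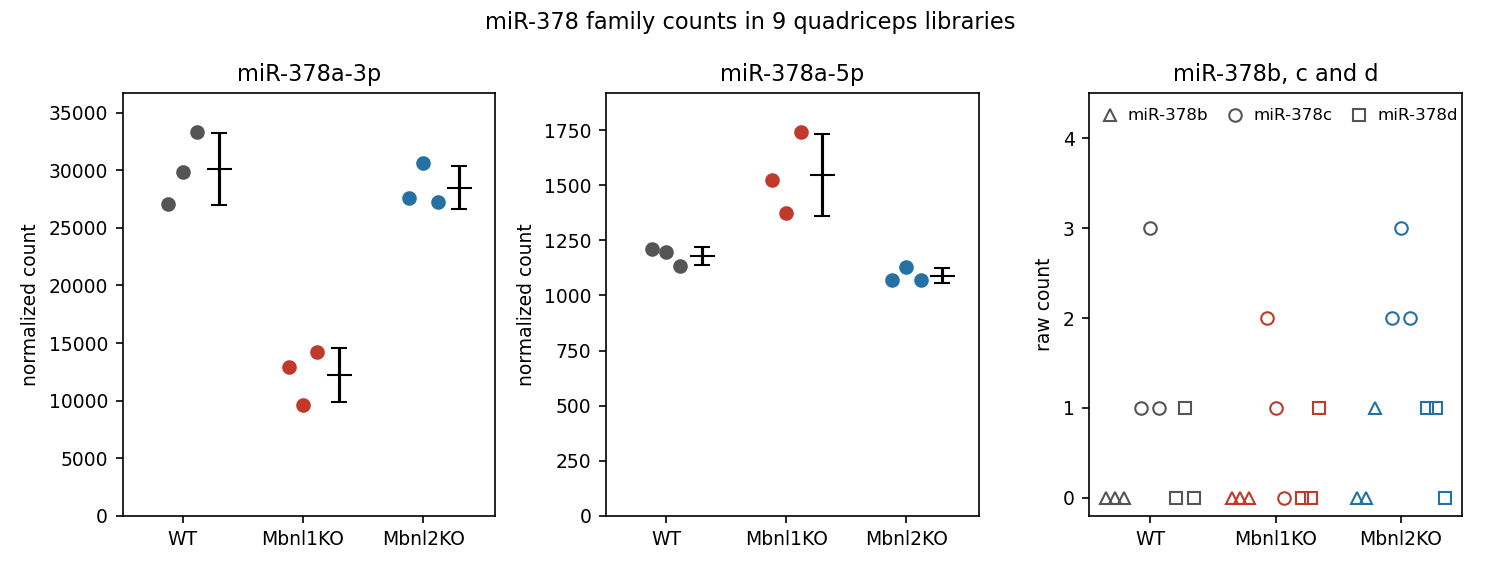
Normalized counts of miR-378a-3p and miR-378a-5p and raw counts of miR-378b, miR-378c and miR-378d (vertical axes) in each library of the 3 groups; points are libraries, and bars show the mean and SD of 3 mice. The Mbnl1KO libraries lie below all others for miR-378a-3p and above all others for miR-378a-5p, and no library has more than 3 counts of a paralog.

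In the fit of Mbnl1KO against WT, the log2 fold change of miR-378a-3p was −1.30 (SE 0.15, adjusted p = 2.36e-12, edgeR quasi-likelihood, Benjamini-Hochberg over 317 miRNAs), a 2.46-fold lower level. It was 6th of the 45 miRNAs that fell in this comparison, ordered by size of change. As the family was proposed with results of the same Mbnl1KO libraries in view, this p is not independent support. Leaving out each of the 6 libraries in turn gave log2 fold changes between −1.42 and −1.13, each past the threshold of 0.05. The labels give no batch. The edgeR p-values rest on a spread between these mice that is estimated in part from all tested miRNAs, not from miR-378a-3p alone. With all 9 libraries in 1 fit, the log2 fold change of miR-378a-3p was −1.31 and the edgeR adjusted p 3.28e-07.

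The 5p arm of the same hairpin moved the other way, by a smaller factor. Raw counts of miR-378a-5p were 1124, 1234 and 924 in WT, 2054, 1332 and 2088 in Mbnl1KO, and 1080, 1156 and 846 in Mbnl2KO. Normalized counts were 1211, 1196 and 1134 in WT, 1523, 1373 and 1743 in Mbnl1KO, and 1071, 1129 and 1068 in Mbnl2KO. Each Mbnl1KO library lay above all 6 others, and each Mbnl2KO library lay below all 3 WT libraries by a narrow margin.

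The mean normalized count of miR-378a-5p was 1180 ± 40.7 in WT, 1546 ± 186 in Mbnl1KO and 1090 ± 34.2 in Mbnl2KO (SD, n = 3). In Mbnl1KO against WT the log2 fold change was 0.39 (SE 0.15, adjusted p = 0.0389 by edgeR over 317 miRNAs), a 1.31-fold higher level. This call was not stable. Only 1 of the 6 fits that each leave out a library kept it, with adjusted p between 0.00634 and 0.223, and leaving out any library but Mbnl1KO replicate 2 lost it. The adjusted p was 0.0726 with the replicate number as a block. The log2 fold change itself stayed between 0.29 and 0.69 under all 15 alternatives tried.

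Both tested members were thus called in Mbnl1KO against WT, in opposite directions, where 33.1% of the 317 tested miRNAs were called (18.9% higher and 14.2% lower). Groups of miR-378a-3p did not overlap, as for 22.7% of all tested miRNAs in the lower direction, nor did those of miR-378a-5p, as for 22.1% in the higher direction. Changes of this kind were therefore frequent among all miRNAs of this comparison. Scaling by library totals without TMM shifted the median change from −0.0090 over 317 tested miRNAs to 0.30 over 318 on the log2 scale, and miR-378a-3p remained lower (−0.99) and miR-378a-5p higher (0.69).

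In normalized counts the arms moved by very different amounts. Mean miR-378a-3p fell by 17843 normalized counts from WT to Mbnl1KO, and mean miR-378a-5p was 366 normalized counts higher, 2.05% of the size of the fall. The sum of both arms was 31270 ± 3087 in WT, 13793 ± 2537 in Mbnl1KO and 29583 ± 1908 in Mbnl2KO (SD, n = 3). In bulk muscle, fewer cells of a type and less RNA per cell cannot be told apart.

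Neither arm passed the test in Mbnl2KO against WT. The log2 fold change was −0.062 (SE 0.12, adjusted p = 0.826) for miR-378a-3p and −0.096 (SE 0.13, adjusted p = 0.740) for miR-378a-5p by edgeR over 293 miRNAs. Of the 2 tested members 0 were called, 0 had an unadjusted p under 0.05, and DESeq2 called 0, where 5.8% of all tested miRNAs were called by edgeR. The groups of miR-378a-5p did not overlap in the lower direction, as for 10.6% of the tested miRNAs. The sign for miR-378a-3p depended on WT replicate 3, without which its log2 fold change was 0.031. Both knockout groups were compared with the same 3 WT libraries.

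Mbnl1KO and Mbnl2KO mice were set side by side as a description, since the miR-378a-3p difference was what brought the family to attention. Against Mbnl2KO, miR-378a-3p of Mbnl1KO had a log2 fold change of −1.22 (SE 0.14), 2.33-fold lower, and miR-378a-5p one of 0.50 (SE 0.14), 1.42-fold higher. In that comparison 26.9% of the 309 tested miRNAs were called.

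The 5p to 3p ratio of miR-378a was next computed within each library, where no scaling between libraries enters. Per 100 miR-378a-3p reads there were 4.47, 4.01 and 3.40 miR-378a-5p reads in WT, 11.8, 14.2 and 12.2 in Mbnl1KO, and 3.88, 3.68 and 3.92 in Mbnl2KO. The 3 Mbnl1KO libraries stood apart from the other 6, and the Mbnl2KO libraries fell within the range of WT. The WT and Mbnl1KO groups did not overlap in this direction for 15.9% of the hairpins measured. The group means were 3.96 ± 0.534, 12.8 ± 1.29 and 3.83 ± 0.128 reads per 100 in WT, Mbnl1KO and Mbnl2KO (SD, n = 3). As a share of the reads of both arms, the 5p arm was 3.81% ± 0.495 in WT, 11.3% ± 1.01 in Mbnl1KO and 3.69% ± 0.119 in Mbnl2KO. The 3p arm remained the more abundant one in every library.

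**Figure D2:**
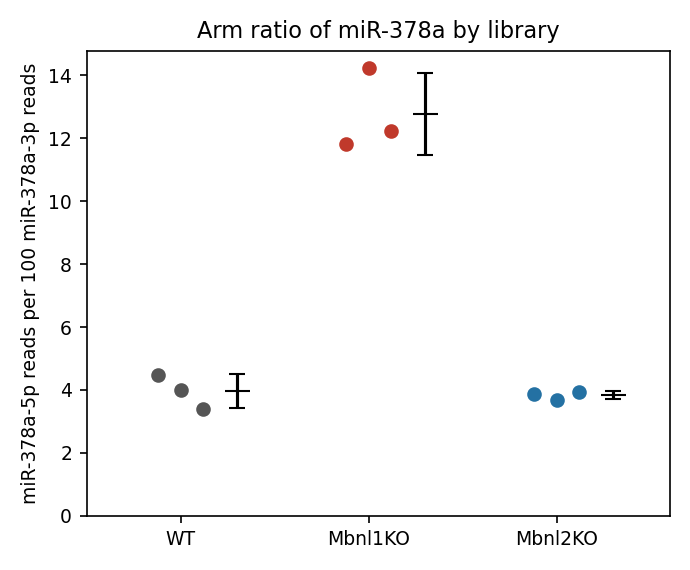
Reads of miR-378a-5p per 100 reads of miR-378a-3p (vertical axis) in each library of WT, Mbnl1KO and Mbnl2KO; points are libraries, and bars show the mean and SD of 3 mice. The Mbnl1KO libraries lie between 11.8 and 14.2, and the other 6 libraries lie between 3.40 and 4.47.

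The log2 ratio of 5p to 3p counts, with 0.5 added to each, was then fitted with limma for the 69 hairpins whose arms both had a mean above 2 CPM (counts scaled to the library total). For miR-378a the ratio was 1.69 higher on the log2 scale in Mbnl1KO than in WT (SE 0.18, adjusted p = 0.000252 over 69 hairpins), 3.23-fold with a 95% confidence interval of 2.43 to 4.30. The estimate was the largest of the 69 hairpins. The denominator of this ratio is the miR-378a-3p count of the same Mbnl1KO libraries that were in view when the family was proposed, so neither this p nor the order among hairpins is independent support. This comparison called 4.35% of the hairpins, which were miR-378a and, named after their values were seen, miR-434 and miR-329. Their log2 ratios were 1.54 (SE 0.25) and 1.40 (SE 0.29) higher in Mbnl1KO. All 3 called hairpins had a larger 5p share in Mbnl1KO. miR-329 rests on low counts, with means of 8.08 (5p) and 14.0 (3p) CPM, and the set of called hairpins depends on the filter, as given below. By their values alone, without a call, the groups of 5 further hairpins (7.25%) did not overlap in the direction of a smaller 5p share. The standard errors of the 3 overlap, so their order is not resolved.

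The ratio of miR-378a in Mbnl1KO against WT was past the threshold under all 13 alternatives. Only fits that left out a WT or Mbnl1KO library could move the difference much, and these gave log2 differences between 1.59 and 1.78. The other alternatives used the same libraries of both groups, so their estimate was largely fixed in advance. A planned permutation test of this ratio over the 3 groups did not pass (exact permutation p = 0.0286, adjusted p = 0.114 over 4 ratios). That test contains the contrast on which the family was chosen. In Mbnl2KO against WT the ratio differed by −0.040 (SE 0.18, adjusted p = 0.960 by limma), 0.973-fold with an interval of 0.731 to 1.29, a comparison in which 0% of the hairpins were called. In Mbnl1KO against Mbnl2KO, given as a description, the ratio was 3.33-fold higher, the second largest difference of the 69 hairpins, where 10.1% of hairpins were called.

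**Figure D3:**
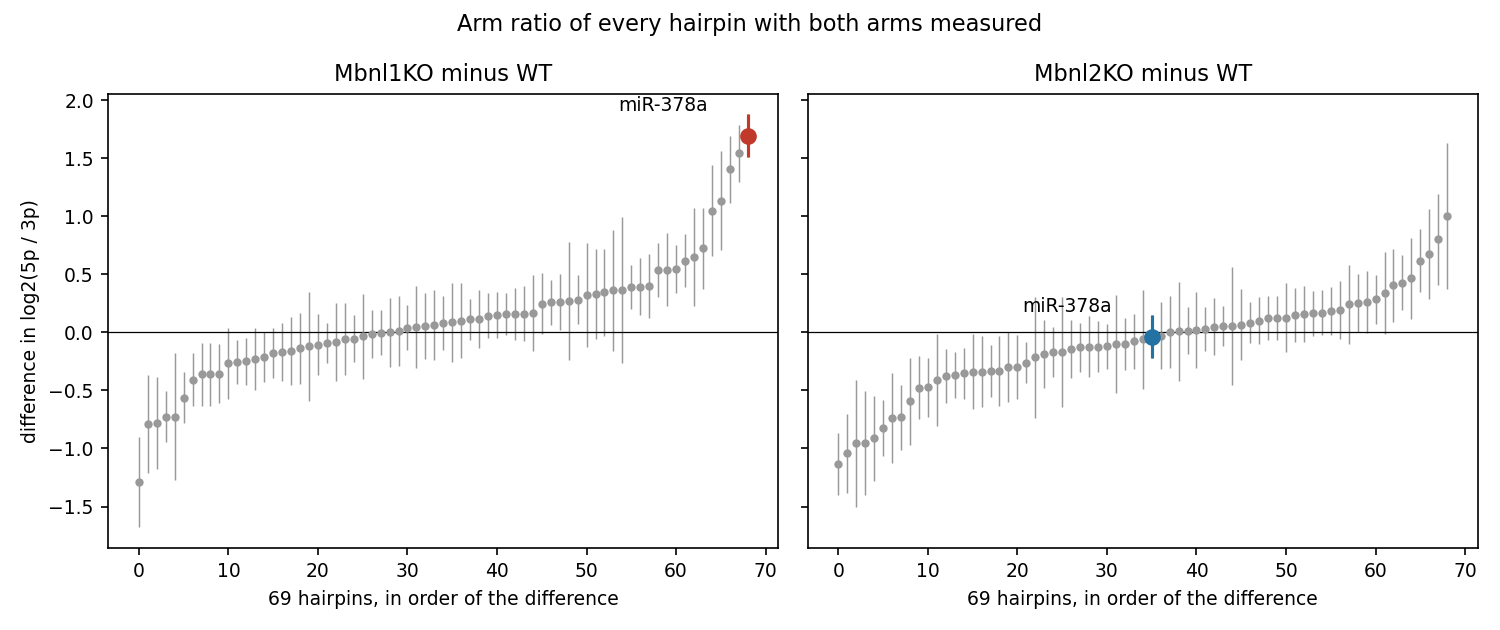
Difference in log2(5p/3p) between each knockout group and WT (vertical axis) for the 69 hairpins with both arms measured, ordered by the difference (horizontal axis); points are limma estimates and bars their standard errors. miR-378a is at the upper end in Mbnl1KO (1.69) and near the middle in Mbnl2KO (−0.040).

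Very few reads were listed under the paralogs. Raw counts of miR-378c were 1, 3 and 1 in WT, 2, 1 and 0 in Mbnl1KO, and 2, 3 and 2 in Mbnl2KO. The group sums of miR-378c were 5, 3 and 7 counts, with exact 95% Poisson intervals of 1.62 to 11.7, 0.619 to 8.77 and 2.81 to 14.4 counts, which overlap. A difference between groups was not detectable at counts this low. The intervals cover counting error only, and reads without molecular identifiers are not independent molecules. Raw counts of miR-378d were 0, 1 and 0 in WT, 0, 0 and 1 in Mbnl1KO, and 1, 1 and 0 in Mbnl2KO. For miR-378b the only count was in Mbnl2KO replicate 3. With 3 counts taken as the limit that a count of 0 allows, the 0 of 17044904 WT reads allows a miR-378b share of up to 1.76e-05%, and the 0 of 17442649 Mbnl1KO reads a share of up to 1.72e-05%. Such limits cover only reads listed as miR-378b, since the assignment of reads that fit more than 1 member is not stated. Ratios of these paralogs to miR-378a-3p rest on so few reads, over the count the family was chosen on, that they are not given as tests.

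miRNAs whose profiles over the 9 libraries were most like each arm of miR-378a were listed as a description. Among the 309 miRNAs compared, the 5 most like miR-378a-3p were miR-501-3p (Pearson r = 0.971 of log2 TMM-normalized counts), miR-1843a-3p (0.959), miR-151-5p (0.924), miR-223-3p (0.920) and miR-193a-5p (0.915). All 5 were lower in Mbnl1KO than in WT in the edgeR fit, with log2 fold changes between −1.28 for miR-1843a-3p and −0.48 for miR-151-5p. The means of miR-501-3p were 289.8, 143.7 and 239.1 normalized counts in WT, Mbnl1KO and Mbnl2KO. The 9 libraries form 3 groups, so that any miRNA that is low in Mbnl1KO alone correlates with miR-378a-3p.

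The 5 most like miR-378a-5p were miR-154-3p (r = 0.955), miR-539-5p (0.940), miR-382-3p (0.904), miR-382-5p (0.902) and miR-495-3p (0.898). They were higher in Mbnl1KO than in WT, with log2 fold changes between 0.45 for miR-382-5p and 1.73 for miR-495-3p. Any miRNA that is high in Mbnl1KO alone correlates with miR-378a-5p. miR-154-3p was near the filter, with means of 11.4 (WT) and 9.82 (Mbnl2KO) normalized counts. The 2 lists share no miRNA, which the opposite profiles of the arms fix in advance. The arms of miR-378a had r = −0.79 with each other over the 9 libraries, which put miR-378a-5p at rank 269 of 309 in likeness to miR-378a-3p.

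**Figure D4:**
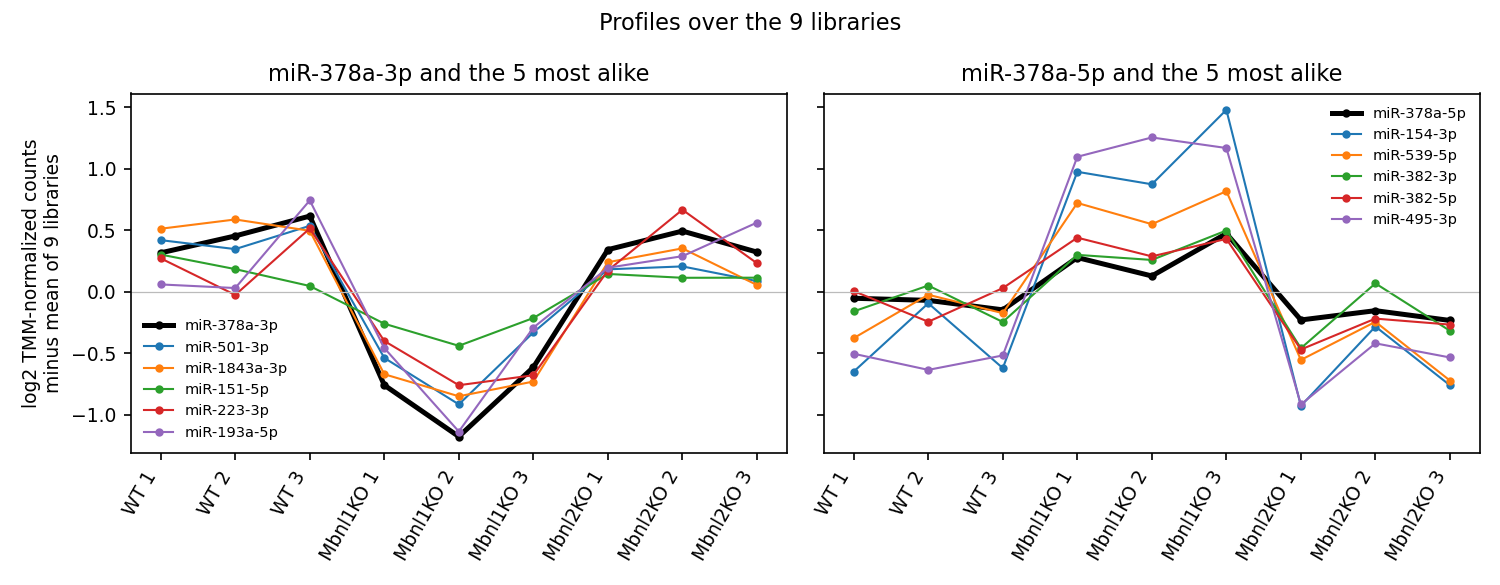
Log2 TMM-normalized counts minus the mean over the 9 libraries (vertical axis) for miR-378a-3p, miR-378a-5p and the 5 miRNAs most like each, with 1 point per library (horizontal axis) and lines that only join the points of a miRNA. The profiles on the left dip and those on the right peak in the 3 Mbnl1KO libraries, with Mbnl1KO replicate 2 the lowest for miR-378a-3p.

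The arms of miR-378a were also set beside other miRNAs with roles in lipid, glucose or mitochondrial metabolism. Of 22 such miRNAs listed, 18 were tested in Mbnl1KO against WT, of which 7 were higher and 3 lower, where 18.9% of all tested miRNAs were higher and 14.2% lower, with a median log2 fold change of 0.23 beside −0.0090 over everything tested. The higher ones included miR-107-3p (1.55), which is encoded in a Pank gene of coenzyme A synthesis, miR-27a-3p (1.61), miR-27b-3p (0.72) and miR-23a-3p (0.98). The lower ones were miR-149-5p (−0.46), miR-365-3p (−0.59) and miR-196a-5p (−0.45), against −1.30 for miR-378a-3p. miR-33-5p and miR-122-5p were listed at 0 in all libraries. In Mbnl2KO against WT, 17 of the 22 were tested, with 3 higher and 1 lower, where 5.8% of all tested miRNAs were called in either direction, and a median of −0.0096 beside 0.019 for all. The one that fell there was miR-149-5p (−0.57), and miR-148a-3p (0.77) and miR-182-5p (1.33) were among those that rose.

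Among 7 muscle miRNAs, 5 were tested and 2 were higher in Mbnl1KO than in WT, as were 18.9% of all tested miRNAs. These were miR-206-3p (1.93), a miRNA of regenerating muscle, and its genomic neighbour miR-133b-3p (0.71). miR-1a-3p had a log2 fold change of −0.40 (adjusted p = 0.0502 by edgeR) and narrowly did not pass the test. Both outcomes differ from the paper, which used DESeq2 and reports miR-1 as significantly lower in Mbnl1KO and miR-133b as not significantly higher. miR-206-3p was also higher in Mbnl2KO (0.89), where neither arm of miR-378a passed.

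**Figure D5:**
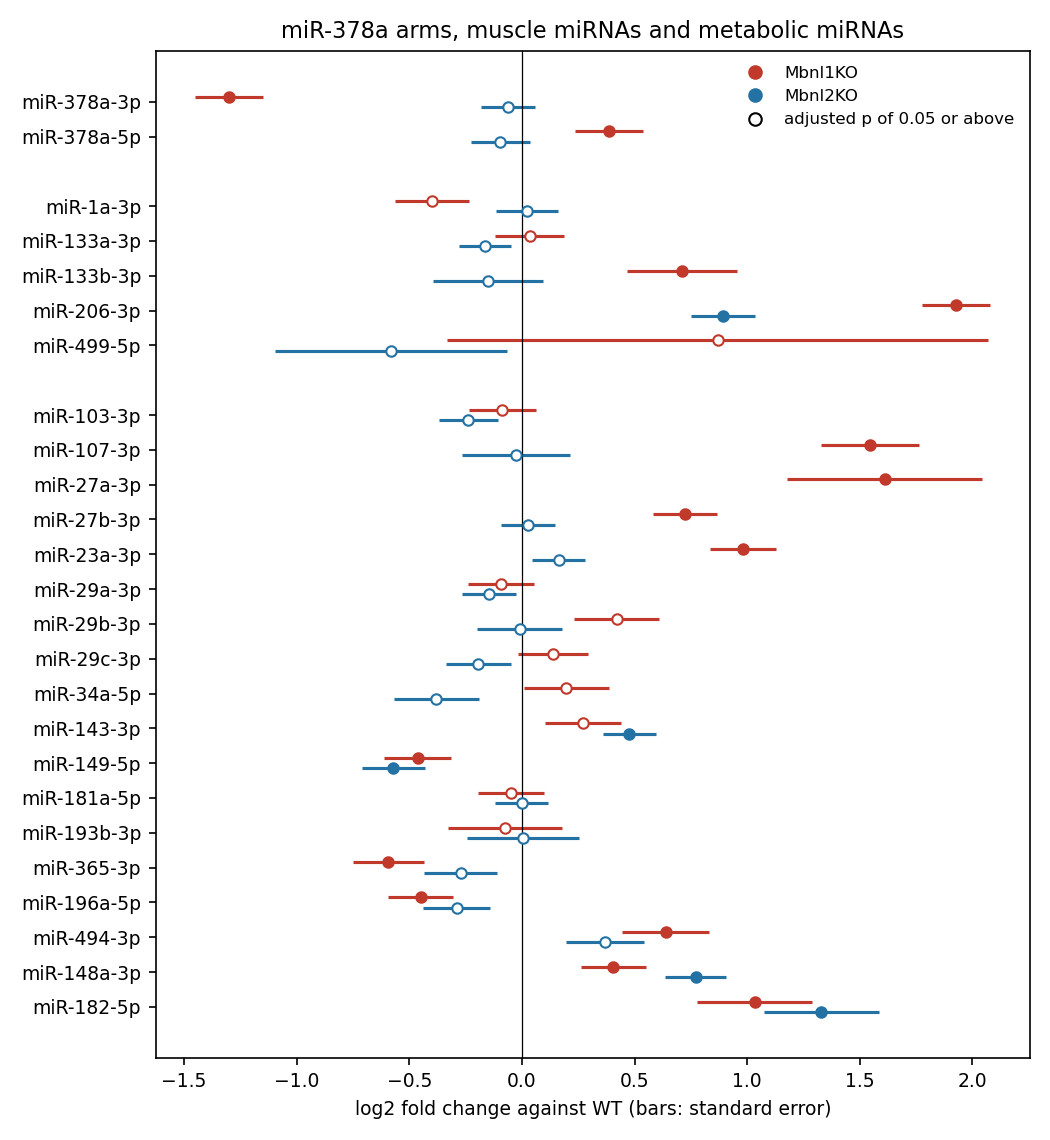
Log2 fold changes against WT (horizontal axis) of the arms of miR-378a, the tested muscle miRNAs and the tested metabolic miRNAs in Mbnl1KO and Mbnl2KO; bars are standard errors and open symbols have an adjusted p of 0.05 or above. miR-378a-3p in Mbnl1KO is the leftmost point (−1.30), and miR-27a-3p was tested in Mbnl1KO only.

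miRNAs of other cell types were examined beside the fall of miR-378a-3p. Of 8 miRNAs of immune and blood cells, 6 were tested in Mbnl1KO against WT, of which 1 was higher (miR-155-5p, 0.86) and 3 were lower (miR-223-3p, −0.87; miR-142a-5p, −0.84; miR-146a-5p, −0.49), beside the 33.1% of all tested miRNAs called in this comparison (18.9% higher and 14.2% lower). Their summed normalized counts ranged over 2867 to 3120 in the WT libraries, 2679 to 3373 in the Mbnl1KO libraries and 2945 to 3098 in the Mbnl2KO libraries, and miR-142a-3p was listed at 0 in all libraries. Of 7 that mark connective tissue or the vessel wall, 5 were tested and 1, miR-199a-3p, was lower (−0.43). Their sums ranged over 36010 to 40326 (WT), 32828 to 48303 (Mbnl1KO) and 42977 to 49661 (Mbnl2KO), with miR-126a-3p and miR-126a-5p listed at 0. The Mbnl2KO sums lay wholly above those of WT, and miR-143-3p of this list was higher in Mbnl2KO than in WT (0.48, adjusted p = 0.0169 by edgeR). Of 4 miRNAs of brown fat, 3 were tested and 2 were lower, miR-365-3p and miR-196a-5p. Their sums ranged over 5934 to 8481 (WT), 4873 to 5298 (Mbnl1KO) and 5049 to 6192 (Mbnl2KO), so that the Mbnl1KO and WT ranges did not overlap, and all 4 are also among the metabolic miRNAs. The part of such cells in the miR-378a-3p result was not tested.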

How the data were processed

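The authors deposited 1 table of raw counts, with a row for each mature miRNA and a column for each library. Per the methods of the study, reads of the knockout mice were aligned without mismatches to miRBase precursors and summed over each mature miRNA. The table itself does not name its counting. All 9 columns were mapped to mice by their labels, and 0 columns were left over. Pairwise fits, each on 6 libraries, used edgeR 4.0.16 in R 4.3.3 (quasi-likelihood, robust, TMM factors over the tested miRNAs, mean normalized count above 10, adjusted p under 0.05). The study used DESeq2, here an alternative (1.42.0). Arm ratios were fitted with limma 3.58.1 on all 9 libraries (0.5 added to each count). Normalized counts are scaled over all 9 libraries. Python 3.11.15, NumPy 2.4.6, pandas 2.3.3, SciPy 1.17.1 and matplotlib 3.10.9 made the other values, and GENCODE M39 gave positions. Scripts were tested on simulated data.

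The members, lists and tests were chosen with earlier results of these data known. Named miRNAs were the 5 members, the 5 most like miR-378a-3p, and listed miRNAs that passed a test. Named outside this rule, after their values were seen, were miR-434, miR-329, miR-1a-3p, miR-133a-3p, and listed miRNAs at 0 in all libraries. A second likeness list was planned for miR-378b or miR-378c, which had too few counts, and miR-378a-5p was used instead after its values were seen. The 9 correlations between same-numbered libraries were between −0.154 and 0.132, with 2 over 0.1, so replicate numbers were not taken to pair mice.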

Additional observations from a re-analysis of the deposited data

How the results depend on the processing

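In Mbnl1KO against WT, 2 members were called, and only 1, miR-378a-3p, when edgeR took the size factors of DESeq2, with no filter beyond 1 count, with the replicate block, with a threshold of 0.01, and in 5 of the fits that each leave out a library (range 1 to 2). In Mbnl1KO against Mbnl2KO, the contrast on which the family was chosen, nothing is read from the number of members past the threshold. It was 2, and 1 with a threshold of 0.01 and without Mbnl1KO replicate 3 or Mbnl2KO replicate 3 (range 1 to 2). The causes were not tested. miR-378a-3p stayed lower and called in Mbnl1KO against WT under all 15 alternatives, which include TMM factors over all detected miRNAs, an alternative added after both fits had been seen (adjusted p 0.0456 for miR-378a-5p against WT). In Mbnl2KO against WT, the log2 fold change of miR-378a-3p was between −0.17 and 0.031 over the fits that each leave out a library, with 0.031 without WT replicate 3, and the arm ratio of miR-378a differed by between −0.14 and 0.051 on the log2 scale over such fits, with 0.051 without WT replicate 1. The exact permutation p of the arm ratio over 3 groups contains that contrast, and nothing is read from it either. It was 0.0286 (adjusted p 0.114 over 4 ratios, not past the threshold) and between 0.00357 and 0.0357 when each library was left out. It passed without WT replicate 3 (adjusted p 0.0143) and had an adjusted p of 0.05 without Mbnl2KO replicate 3. That adjustment also counts the ratios of the paralogs to miR-378a-3p, which rest on few reads and are not given as tests. Counts over all miRNAs moved by more than 1.5 times from 105 in Mbnl1KO against WT to 68 with a minimum mean of 100 (167 tested in place of 317), and from 83 in Mbnl1KO against Mbnl2KO to 45 at a threshold of 0.01. In Mbnl2KO against WT they moved from 17 to 7 under library totals, 9 with a minimum mean of 100 (155 tested in place of 293), 6 at a threshold of 0.01, and 10, 6 and 8 without WT replicate 1, WT replicate 2 and Mbnl2KO replicate 1. Hairpins with a changed arm ratio went from 3 to 5 in Mbnl1KO against WT and from 7 to 4 in Mbnl1KO against Mbnl2KO when each arm needed a mean above 20 CPM, where 21 hairpins were tested in place of 69, so that the share called rose in both. They also went to 5 without WT replicate 1 in the former, to 4 without Mbnl1KO replicate 3 in the latter, and from 0 to 1, 2 and 1 without Mbnl2KO replicates 1, 2 and 3 in Mbnl2KO against WT. Low counts limit what can be said of the paralogs, of which no library held more than 3 counts. Whether depth or the assignment of reads set these counts was not tested. With the replicate number as a block the log2 fold changes in Mbnl1KO against WT were −1.31 (miR-378a-3p) and 0.38 (miR-378a-5p, adjusted p = 0.0726 by edgeR), and the block ended no other call on the members.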
